A study of Mus musculus with 8 samples.

Results

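The vascular endothelial growth factor (VEGF) family was followed here at the level of messenger RNA in mouse epicardial cells, through its 5 ligand genes, its 3 receptor tyrosine kinase genes and its 2 neuropilin genes. Members were taken from the table by gene name, and the family was picked with earlier results of these data known. They are Vegfa, Vegfb, Vegfc, Vegfd (named Figf in the deposited tables) and Pgf, then Flt1, Kdr and Flt4, then Nrp1 and Nrp2, and all 10 were found among the 35275 genes of the table and passed the filter on low counts. The epicardium is the mesothelial layer that covers the heart. RNA came from an epicardial cell line (MEC in the labels, also written MCEC), grown in dishes in high glucose medium with fetal bovine serum. In the 4 KO libraries the cells had been transduced with lentivirus for CRISPR/Cas9 directed at Hdac3, a histone deacetylase that works with nuclear receptor corepressors, and in the 4 EV libraries the cells had received an empty lentiviral vector. The sources used here do not say whether the KO cells were a clone or a pool, or whether the empty vector carried Cas9. Nothing says that replicates were separate cultures, so p-values measure only the spread between these libraries.

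VEGF-A, VEGF-B and placental growth factor (Pgf) bind VEGFR1, encoded by Flt1, while VEGF-A also binds VEGFR2, encoded by Kdr, which carries most of its signal in blood vessel endothelium. VEGF-C and VEGF-D are made as long precursors, are cut by proteases, and then bind VEGFR3, encoded by Flt4. VEGF-C also binds VEGFR2, and its signalling through VEGFR3 drives the growth of lymphatic vessels. Neuropilins have no kinase of their own and act as coreceptors, shared with the class 3 semaphorins and their plexin partners. In the heart, the epicardium and the muscle below it are sources of VEGF ligands for the coronary and lymphatic vessels, whose endothelium carries the receptors.

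The libraries held 19173812 to 24564892 counts in KO and 18063745 to 22289125 counts in EV. Hdac3 itself had 63.2, 56.9, 63.9 and 62.6 CPM in KO replicates 1 to 4, against 60.3, 61.4, 64.0 and 61.7 CPM in EV replicates 1 to 4. CPM are TMM-normalized here: counts scaled to the library size, with a correction for the composition of each library. The transcript did not separate the groups (edgeR adjusted p = 0.956), and because a Cas9 edit can leave transcript level unchanged, it does not check the labels. KO replicate 1 is KO by its title and empty vector by its characteristics; titles were used for grouping, and along principal component 1 (48.8% of the variance) all KO libraries lay between 16.3 and 20.1 and all EV libraries between −22.3 and −16.9. Summed liver markers (10 genes, 5 of them tested, with Ces1g, Alb and Apoa2 higher in KO) covered 12.7 to 25.7 CPM in KO and 6.55 to 8.66 CPM in EV, and they were highest in KO replicates 2 and 3. Without those 2 libraries, 2 liver markers were higher.

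Epicardial identity genes were abundant in both groups. The 14 markers of epicardium and mesothelium summed to 4976 to 5131 CPM in KO and 4960 to 5235 CPM in EV. Of 13 tested, 4 were higher and 3 lower in KO, while 26.0% of all genes tested passed in either direction. Wt1, the zinc finger factor of the epicardium, averaged 263 ± 8.43 CPM in KO and 341 ± 13.7 CPM in EV (SD, n = 4 each), whereas Msln averaged 926 ± 24.0 CPM in KO and 683 ± 29.2 CPM in EV. The keratins Krt18 (0.54) and Krt8 (1.66) were higher as well, and the transcription factor Tcf21 (−0.74) was lower, on the log2 scale. Aldh1a2, an enzyme of retinoic acid synthesis in the epicardium, was under the filter.

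Endothelial cells, the usual site of Flt1, Kdr and Flt4, left few counts. The 18 markers of blood endothelium summed to 11.9 to 14.1 CPM in KO and 11.4 to 13.9 CPM in EV, and 14 of them were under the filter. Over the 4 libraries of a group, Cdh5 (VE-cadherin) had 4 counts in KO and 3 in EV, Pecam1 had 5 in KO and 12 in EV, and Tie1 and Cldn5 had 1 each in KO and 0 each in EV. Emcn had 9 counts in KO and 37 in EV, Esam 6 and 20, and Icam2 1 and 16, while Vwf had 23 in KO and 8 in EV and Plvap 29 and 25. Most of the sum came from Tek (449 counts in KO and 324 in EV), Ptprb (295 and 211) and Egfl7 (232 and 256). The 6 lymphatic markers summed to 12.5 to 14.9 CPM in KO and 13.8 to 16.4 CPM in EV; most of this was Mmrn1 at 9.81 ± 0.915 CPM in KO and 10.9 ± 1.59 CPM in EV, while Prox1, the defining factor of lymphatic endothelium, had 6 counts in KO and 1 in EV and Ccl21a had 0 in both groups. In bulk RNA, fewer cells that express a gene and less of its RNA per cell cannot be told apart.

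Of the 10 VEGF genes, 2 were higher in KO cells (Vegfa and Nrp1), 3 were lower (Vegfc, Kdr and Flt4) and 5 did not pass edgeR's quasi-likelihood test at an adjusted p of 0.05. The differences were not of one direction: 1 ligand was higher and 1 lower, 2 receptors were lower and none higher, and 1 neuropilin was higher. Across all 12801 genes tested, 26.0% passed, 12.6% higher and 13.4% lower in KO, so that 5 of 10 members stand beside a background of about 1 in 4. Library totals in place of TMM scaling gave 1039 genes higher and 2414 lower, and limma on log2(FPKM + 1) gave 896 higher and 2076 lower, against 1613 higher and 1711 lower with TMM. The median log2 fold change was −0.06 over the members and 0.01 over all genes, and the median size without sign was 0.28 over the members and 0.14 over all genes. The CPM ranges of the groups did not overlap for 5 members, against 26.5% of all genes tested. The 5 members that passed are the ones without overlap. Groups without overlap always give the smallest two-sided exact permutation p that 4 against 4 libraries allow, 0.0286, so for these members that p adds nothing further.

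**Figure D1:**
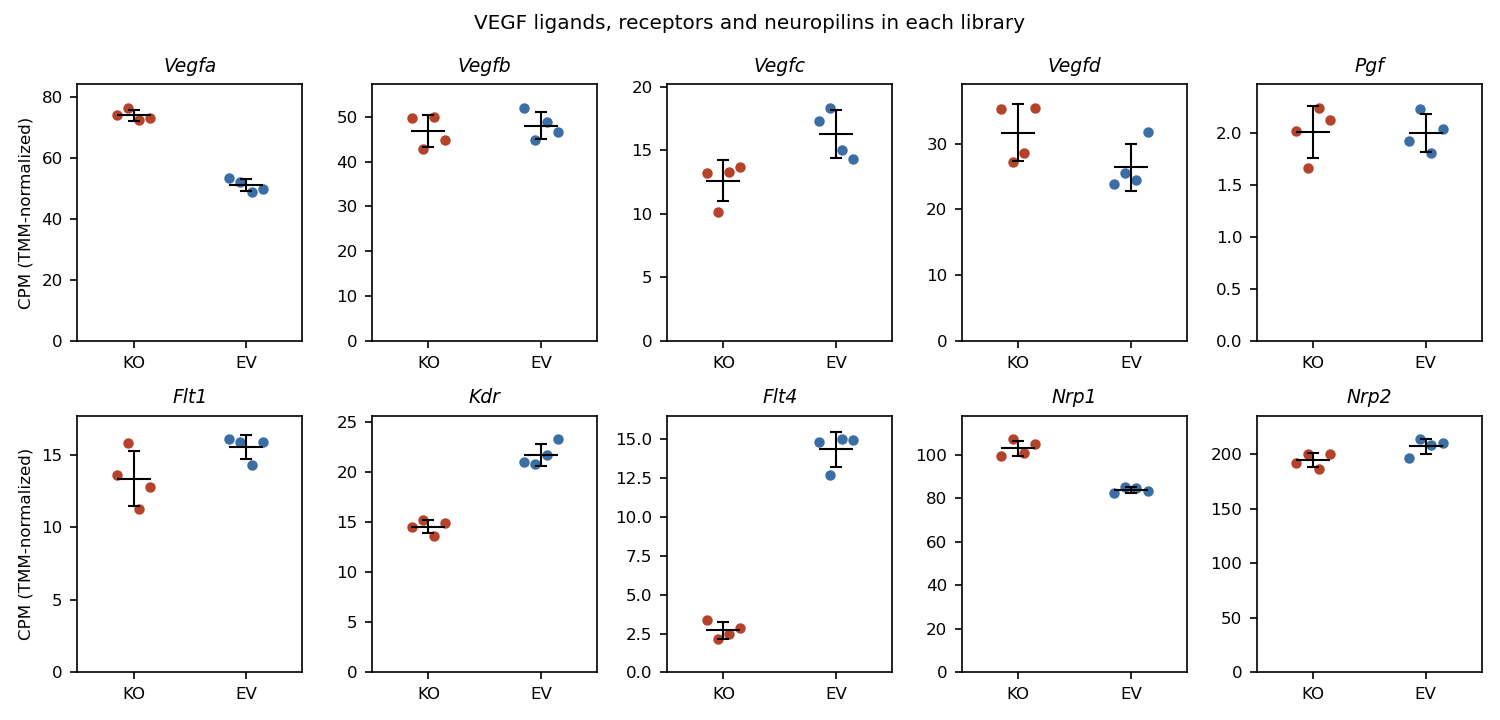
TMM-normalized CPM of each VEGF gene in each library, KO at the left and EV at the right of every panel; points are libraries, the long bar is the mean and the whiskers are the SD over 4 libraries. Flt4 lies between 2.16 and 3.40 CPM in KO and between 12.67 and 14.997 CPM in EV, while Vegfb, Vegfd, Pgf, Flt1 and Nrp2 overlap between the groups.

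The upstream sequence is shown for 4 of the members that passed, to place each gene and to show what lies before it. The windows come from RefSeq on GRCm38.p6, the reference of the mm10 coordinates in the files, and end at the base before the first exon of any coding transcript; those of Flt4 and Pgf lie within exons of coding transcripts and are not printed. Capitals mark the GC box (GGGCGG on either strand), a binding site of Sp factors, and the nuclear receptor half-site (AGGTCA on either strand), a site of the receptors that recruit corepressors. Vegfa on the minus strand has 250 bases at chr17:46032378-46032627, Vegfc on the plus strand 250 bases at chr8:54077282-54077531, Kdr on the minus strand 247 bases at chr5:75978459-75978705, and Nrp1 on the plus strand 250 bases at chr8:128358823-128359072, each printed 5′ to 3′ on the gene's own strand.
Vegfa: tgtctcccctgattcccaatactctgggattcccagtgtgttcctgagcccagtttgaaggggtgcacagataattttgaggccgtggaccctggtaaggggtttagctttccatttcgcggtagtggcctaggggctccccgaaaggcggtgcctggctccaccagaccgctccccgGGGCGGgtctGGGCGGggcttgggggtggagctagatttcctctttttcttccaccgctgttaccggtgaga
Vegfc: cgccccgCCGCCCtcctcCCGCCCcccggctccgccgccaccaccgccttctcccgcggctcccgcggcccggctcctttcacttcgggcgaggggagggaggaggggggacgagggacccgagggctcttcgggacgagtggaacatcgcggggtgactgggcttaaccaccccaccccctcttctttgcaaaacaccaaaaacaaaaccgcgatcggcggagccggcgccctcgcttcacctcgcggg
Kdr: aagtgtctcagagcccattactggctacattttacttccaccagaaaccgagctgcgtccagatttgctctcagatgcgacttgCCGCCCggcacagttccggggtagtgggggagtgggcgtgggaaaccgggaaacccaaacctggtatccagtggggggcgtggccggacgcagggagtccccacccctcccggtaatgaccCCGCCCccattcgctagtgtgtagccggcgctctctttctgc
Nrp1: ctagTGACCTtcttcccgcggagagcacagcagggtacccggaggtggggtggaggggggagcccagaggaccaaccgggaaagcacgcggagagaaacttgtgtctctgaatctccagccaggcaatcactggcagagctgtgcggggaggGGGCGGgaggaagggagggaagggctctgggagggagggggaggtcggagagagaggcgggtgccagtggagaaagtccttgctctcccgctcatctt

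Of the motifs looked up, only the GC box was in every printed window. In the 250 bases before the RefSeq start it was present in 9 of the 10 members, all but Vegfd, while 32.7% of 32851 mouse promoters in the same reference table hold it. The half-site was found for Vegfb (2 matches) and Nrp1 (1 match), against 14.0% of promoters. Vegfb did not pass the test and Nrp1 was higher in KO, so too few windows held the site to compare higher with lower genes. The core of the hypoxia factor site, ACGTG on either strand, was in none of the 10 windows, against 16.6% of promoters. The core of the ETS factor site, GGAAG, was in 6 of the 10 windows, against 64.1% of promoters. The TATA box core, TATAAA, was in 2, against 12.4%. GC content was 42.4% for Vegfd, the window without a GC box. The other windows ran from 59.2% for Vegfa to 76.4% for Vegfb, all above the median of 52.4% over all promoters. GC-rich windows hold a GC-rich motif more often, and promoters of like GC content were not compared. A match is a description of letters, and a window without one says nothing of more distant sites.

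Vegfa, the main ligand of VEGFR2 and the best known angiogenic factor, was the ligand with the clearest difference. It had 74.2, 76.5, 72.3 and 73.1 CPM in KO replicates 1 to 4, against 53.5, 52.2, 49.0 and 49.9 CPM in EV replicates 1 to 4. Every KO library was above every EV library, with a gap wider than the range within either group. The means were 74.0 ± 1.81 CPM in KO and 51.1 ± 2.06 CPM in EV (SD, n = 4 each), a 1.45-fold difference and a log2 fold change of 0.53 (SE 0.0509, edgeR's quasi-likelihood test, adjusted p = 1.93e-07). The gene (ENSMUSG00000023951) lies on the minus strand of chromosome 17, mm10 positions 46016993 to 46032377. Gene counts do not separate its splice forms, which differ in how tightly the protein is held by matrix.

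Vegfc, the ligand of VEGFR3 in lymphatic growth, went the other way. KO replicates 1 to 4 had 13.2, 10.2, 13.3 and 13.7 CPM, against 17.3, 18.4, 15.04 and 14.3 CPM in EV replicates 1 to 4. The groups did not overlap, but the highest KO library lay close below the lowest EV library, and KO replicate 2 stood below the other 3. Vegfc averaged 12.6 ± 1.63 CPM in KO and 16.3 ± 1.89 CPM in EV, a log2 fold change of −0.36 (SE 0.106, edgeR's quasi-likelihood test, adjusted p = 0.0160). The call ended with KO replicate 2 left out (−0.28, adjusted p = 0.0564), with EV replicate 2 left out (−0.30, adjusted p = 0.0693) and with both KO replicates 2 and 3 left out (−0.27, adjusted p = 0.151), each by the same edgeR test. The gene (ENSMUSG00000031520) lies on the plus strand of chromosome 8, 54077532 to 54186454.

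Vegfd, the second ligand of VEGFR3, had 35.3, 27.3, 28.6 and 35.5 CPM in KO replicates 1 to 4, against 23.9, 25.5, 24.5 and 31.7 CPM in EV replicates 1 to 4. KO replicates 1 and 4 were the highest of the 8 libraries, and EV replicate 4 lay above KO replicates 2 and 3. The log2 fold change was 0.26 (SE 0.0976, 95% interval 0.055 to 0.46, edgeR's quasi-likelihood test, adjusted p = 0.0570), and the exact permutation p was 0.143. Vegfd passed in 6 of 19 alternative settings, among them the fit without EV replicate 4 (0.36, edgeR adjusted p = 0.00271). The gene (ENSMUSG00000031380) lies on the plus strand of chromosome X, 164373378 to 164402650.

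Vegfb, a ligand of VEGFR1 that is abundant in heart muscle, and Pgf, the placental ligand of the same receptor, had overlapping groups. Vegfb covered 42.7 to 50.1 CPM in KO and 44.9 to 52.0 CPM in EV, with a log2 fold change of −0.04 (95% interval −0.17 to 0.10, edgeR's quasi-likelihood test, adjusted p = 0.729). Pgf covered 1.67 to 2.24 CPM in KO and 1.81 to 2.23 CPM in EV, on 34 to 52 counts per library. Its interval, −0.40 to 0.42 on the log2 scale, leaves room for a difference as large as that of Vegfc in either direction. Vegfb (ENSMUSG00000024962) lies on the minus strand of chromosome 19, 6982473 to 6987651, and Pgf (ENSMUSG00000004791) on the minus strand of chromosome 12, 85166639 to 85177296.

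Flt4, which encodes VEGFR3, had the largest difference of the 10 genes. KO replicates 1 to 4 had 64, 44, 57 and 68 counts or 3.40, 2.16, 2.46 and 2.83 CPM, against 270, 290, 324 and 315 counts or 14.79, 12.67, 14.997 and 14.95 CPM in EV replicates 1 to 4. All KO libraries were far below all EV libraries, and all were above the 0.122 to 0.166 CPM to which 3 counts correspond. The means were 2.71 ± 0.534 CPM in KO and 14.4 ± 1.12 CPM in EV (SD, n = 4 each), 5.31-fold lower in KO, with a log2 fold change of −2.41 (SE 0.131, 95% interval −2.68 to −2.13, edgeR's quasi-likelihood test, adjusted p = 1.23e-10). Among 12801 genes tested, 14 had a more negative log2 fold change. On the log2(FPKM + 1) scale, which compresses low values, the difference was −1.23. The gene (ENSMUSG00000020357) lies on the plus strand of chromosome 11, 49609263 to 49652739.

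Kdr, which encodes VEGFR2, was also lower in KO. It had 14.5, 15.2, 13.7 and 14.9 CPM in KO replicates 1 to 4, against 21.0, 20.8, 21.7 and 23.3 CPM in EV replicates 1 to 4. The groups were well apart and each was tight. Kdr averaged 14.6 ± 0.66 CPM in KO and 21.7 ± 1.11 CPM in EV, a log2 fold change of −0.58 (SE 0.0764, edgeR's quasi-likelihood test, adjusted p = 1.32e-05). The gene (ENSMUSG00000062960) lies on the minus strand of chromosome 5, 75932827 to 75978458.

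Flt1, which encodes VEGFR1 and its soluble decoy form, had 13.6, 15.8, 11.3 and 12.8 CPM in KO replicates 1 to 4, against 16.1, 15.9, 14.3 and 15.8 CPM in EV replicates 1 to 4. KO replicate 2 lay among the EV libraries, and the other KO libraries were below all of them. The log2 fold change was −0.22 (SE 0.0992, 95% interval −0.43 to −0.01, edgeR's quasi-likelihood test, adjusted p = 0.115), and the exact permutation p was 0.0571. Without KO replicate 2 it passed (−0.31, edgeR adjusted p = 0.0262), and without KO replicate 3 it was −0.14. Gene counts do not separate the membrane and soluble forms. The gene (ENSMUSG00000029648) lies on the minus strand of chromosome 5, 147561604 to 147726011.

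Nrp1, the coreceptor of VEGF-A and of semaphorin 3A, had 99.6, 107, 101 and 105 CPM in KO replicates 1 to 4, against 82.2, 85.3, 84.6 and 83.5 CPM in EV replicates 1 to 4. All KO libraries were above all EV libraries. Its means were 103 ± 3.47 CPM in KO and 83.9 ± 1.35 CPM in EV, a log2 fold change of 0.30 (SE 0.0458, edgeR's quasi-likelihood test, adjusted p = 7.42e-05). The gene (ENSMUSG00000025810) lies on the plus strand of chromosome 8, 128359073 to 128505462.

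Nrp2, the coreceptor of VEGF-C and of semaphorin 3F, had the highest CPM of the family. It covered 186 to 200.2 CPM in KO and 197 to 214 CPM in EV, with a log2 fold change of −0.09 (95% interval −0.18 to 0.002, edgeR's quasi-likelihood test, adjusted p = 0.145). Nrp2 passed in 3 of 19 alternative settings. These were library totals in place of TMM scaling (−0.14, edgeR adjusted p = 0.0257) and, in limma, filtered log2(FPKM + 1) and log2(FPKM + 0.1). Its FPKM, scaled by library totals alone, did not overlap, at 27.2 to 29.4 in KO and 29.6 to 32.6 in EV. The gene (ENSMUSG00000025969) lies on the plus strand of chromosome 1, 62703285 to 62818695. Nrp2 is the only member that overlaps another gene of the table, an antisense gene with 0 to 2 counts per library; without a stated strand setting, reads of such a pair cannot be told apart.

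**Figure D2:**
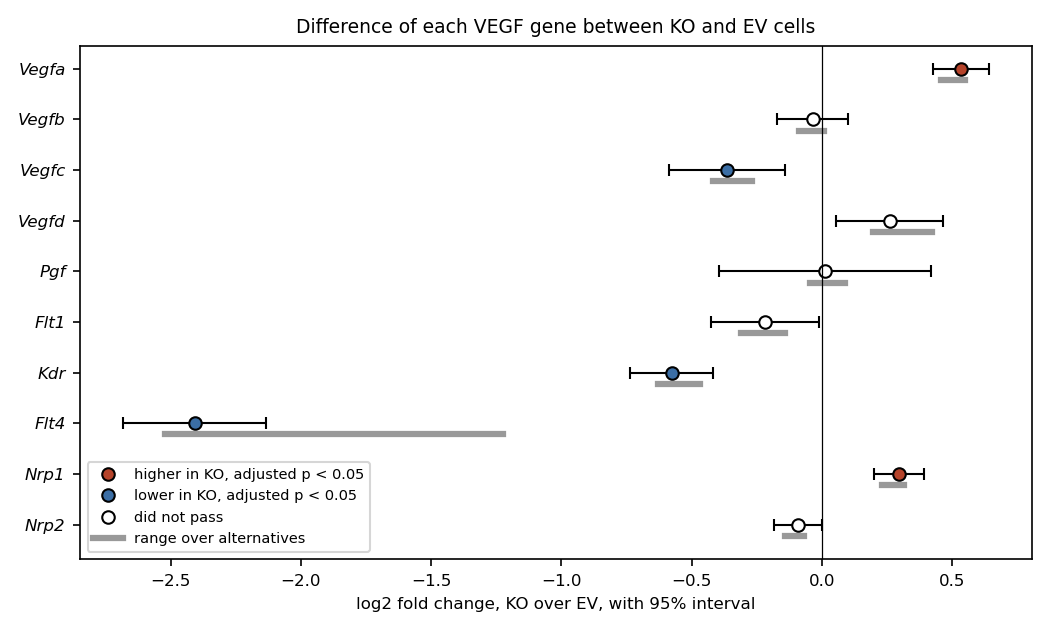
Log2 fold change of each VEGF gene, KO over EV, from edgeR's quasi-likelihood test (points) with 95% intervals (thin bars) and the range over the alternative settings (grey bars); fill marks genes at an adjusted p below 0.05. Flt4 at −2.41 lies apart from the other 9, which run from −0.58 for Kdr to 0.53 for Vegfa.

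**Figure D3:**
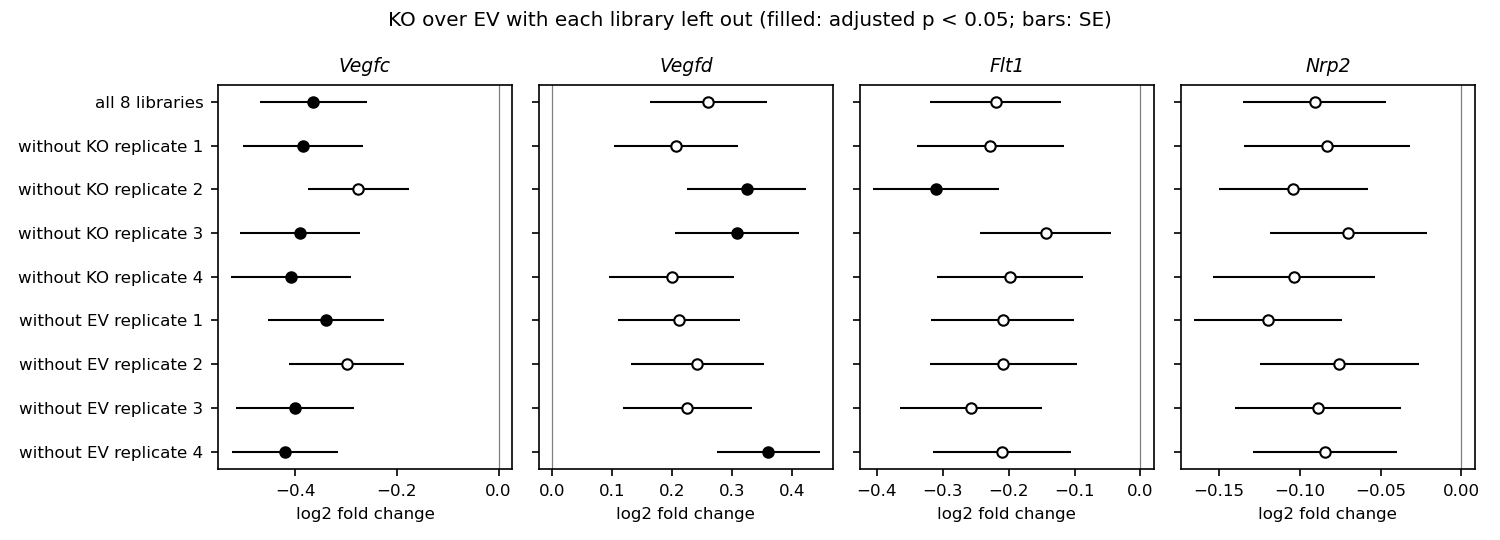
Log2 fold change of Vegfc, Vegfd, Flt1 and Nrp2, KO over EV, with all 8 libraries and with each library left out; points are edgeR estimates, bars are SE, and filled points have an adjusted p below 0.05. Vegfc loses its call without KO replicate 2 or EV replicate 2, Vegfd gains one without KO replicate 2, KO replicate 3 or EV replicate 4, and Flt1 gains one without KO replicate 2.

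Levels of different genes were compared as FPKM, the authors' counts divided by gene length and library total. Neuropilins and all ligands but Pgf were far above the receptors in both groups. In KO, Vegfb led with 35.9 ± 2.72 FPKM, followed by Nrp2 at 28.4 ± 1.02, Vegfa at 21.1 ± 0.587, Nrp1 at 17.1 ± 0.607, Vegfd at 15.2 ± 2.06 and Vegfc at 6.58 ± 0.833 FPKM (SD, n = 4). Kdr at 2.41 ± 0.115, Flt1 at 1.90 ± 0.278, Pgf at 1.248 ± 0.150 and Flt4 at 0.425 ± 0.0837 FPKM closed the KO order. In that order the libraries of Nrp1 and Vegfd overlapped, as did those of Kdr and Flt1, and all other neighbours were apart.

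The EV order had the same first 7 genes and differed in its last 3. Vegfb had 38.1 ± 2.16, Nrp2 31.4 ± 1.30, Vegfa 15.1 ± 0.625, Nrp1 14.5 ± 0.313, Vegfd 13.1 ± 1.85 and Vegfc 8.79 ± 1.05 FPKM in EV, and there the libraries of Nrp1 overlapped with those of both Vegfa and Vegfd. Kdr had 3.73 ± 0.196, Flt4 2.33 ± 0.170, Flt1 2.29 ± 0.129 and Pgf 1.29 ± 0.126 FPKM in EV. Flt4 was thus in place 10 in KO, below Pgf without overlap, and in place 8 in EV, where it could not be told from Flt1.

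Within a library, shares do not depend on scaling between libraries, while FPKM sums do, and these are scaled by library totals alone. Both are given as a description without a test. The 3 receptors summed to 4.74 ± 0.374 FPKM in KO and 8.35 ± 0.319 FPKM in EV. Flt4 made up 9.004 ± 1.79% of that sum in KO and 27.9 ± 1.57% in EV, while Kdr made up 51.0 ± 2.04% in KO and 44.6 ± 1.097% in EV and Flt1 40.0 ± 2.88% in KO and 27.4 ± 1.69% in EV. None of these ranges overlapped between the groups. The ligand sum did overlap, at 74.2 to 84.4 FPKM in KO and 74.1 to 79.0 FPKM in EV, and so did the neuropilin sum, at 43.9 to 47.3 FPKM in KO and 43.7 to 47.5 FPKM in EV.

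The make-up of the ligands and neuropilins differed where their sums did not. Vegfa made up 26.4 ± 2.03% of ligand FPKM in KO and 19.7 ± 0.572% in EV. Vegfb, which did not pass as a gene, made up 44.9 ± 1.97% in KO and 49.9 ± 2.32% in EV. Vegfc made up 8.21 ± 0.734% in KO and 11.5 ± 1.33% in EV. The FPKM ratio of Nrp2 to Nrp1 was 1.66 ± 0.0318 in KO and 2.17 ± 0.0482 in EV, with no overlap between the groups. The 2 ligands of VEGFR3 together were at 21.7 ± 2.70 FPKM in KO and 21.9 ± 1.55 FPKM in EV, with overlapping ranges.

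FPKM ratios of ligands to receptors were higher in KO, where the receptor sum was lower and the ligand sum overlapped between the groups. The FPKM ratio of Vegfa to Kdr was 8.73 ± 0.283 in KO and 4.05 ± 0.331 in EV, and that of Vegfc to Flt4 was 15.7 ± 2.10 in KO and 3.81 ± 0.737 in EV. Vegfc itself was lower in KO, and its ratio was higher because Flt4 was lower by more. All ligands over all receptors gave 17.0 ± 1.88 in KO and 9.16 ± 0.353 in EV. These are ratios of transcripts, and no protein was measured.

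**Figure D4:**
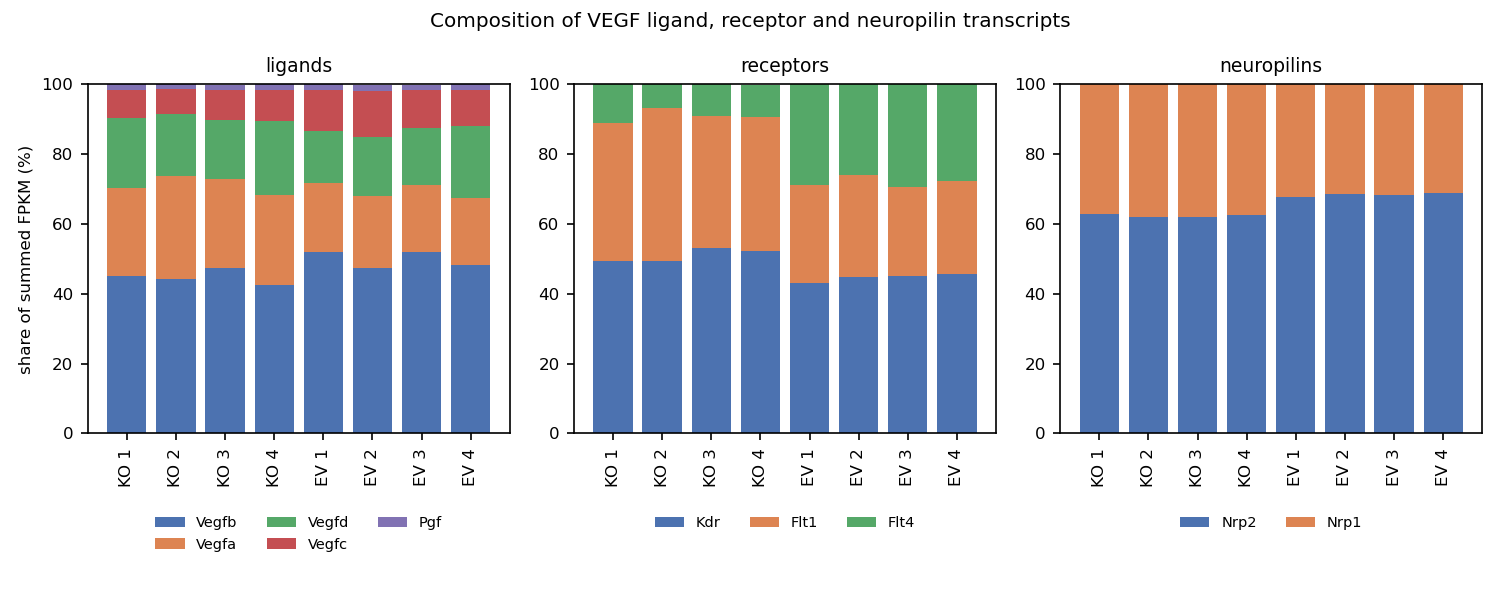
Share of summed FPKM, in percent, of each ligand, receptor and neuropilin within each library, KO 1 to 4 at the left and EV 1 to 4 at the right of each panel; each bar adds to the whole of its class. Flt4 takes 6.62 to 10.9% of receptor FPKM in KO and 25.8 to 29.5% in EV, and Vegfa takes 25.1 to 29.4% of ligand FPKM in KO and 19.2 to 20.5% in EV.

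The nearest tested protein-coding genes on either side were set beside each member that passed. Cnot6, 18.8 kb from Flt4, averaged 237 ± 5.72 CPM in KO and 247 ± 22.3 CPM in EV and did not pass (log2 fold change −0.06, edgeR adjusted p = 0.458). Mgat1, 346 kb away on the other side, was higher in KO (0.20, edgeR adjusted p = 0.0243), a call lost in 4 of 8 fits that left out 1 library. Kit, a receptor tyrosine kinase gene 276 kb from Kdr, was higher in KO at 1.07 ± 0.131 CPM against 0.428 ± 0.198 CPM in EV (1.30, edgeR adjusted p = 0.00857), opposite to Kdr; without KO replicates 2 and 3 it did not pass (1.22, edgeR adjusted p = 0.0883). Both such neighbours of Vegfa, Mrpl14 at 318 kb (0.36) and Mrps18a at 78.6 kb (0.19), were higher in KO, as Vegfa was. These calls were lost in 5 and 6 of the 8 fits. For Vegfc, Neil3 at 438 kb was lower like Vegfc (−0.74, edgeR adjusted p = 0.00238), and Spcs3 at 334 kb was higher (0.16, edgeR adjusted p = 0.0151), a call lost in 2 of the 8 fits and without KO replicates 2 and 3. Pard3 at 747 kb and Itgb1 at 180 kb, on either side of Nrp1, did not pass.

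The maturation list holds 12 proteases and partners that process VEGF-C and VEGF-D, all tested: 1 was higher and 3 lower in KO, and the median log2 fold change was −0.06 against 0.01 over all genes, of which 12.6% were higher and 13.4% lower. For each list the counts are to be read beside these shares, which add to 26.0%, and beside the range over the 8 fits that leave out 1 library. Adamts14, a procollagen protease related to the enzyme that cuts VEGF-C, averaged 20.2 ± 3.10 CPM in KO and 32.4 ± 1.97 CPM in EV (log2 fold change −0.68, edgeR adjusted p = 1.53e-05), and its relative Adamts2 averaged 132 ± 5.95 CPM in KO and 107 ± 2.38 CPM in EV (0.30, edgeR adjusted p = 7.20e-05). Pcsk5, a proprotein convertase, was at 0.403 ± 0.163 CPM in KO and 1.56 ± 0.470 CPM in EV (−1.93, edgeR adjusted p = 0.000274). Ccbe1, the matrix protein that assists VEGF-C cleavage, was at 0.323 ± 0.308 CPM in KO and 1.01 ± 0.271 CPM in EV (−1.52, edgeR adjusted p = 0.0193), on 30 counts over the 4 KO libraries; it did not pass without KO replicate 1 (−1.22, edgeR adjusted p = 0.0568) or without KO replicate 2 (−1.29, edgeR adjusted p = 0.0625). Adamts3, the enzyme that makes the cut, did not pass (−0.26, edgeR adjusted p = 0.0591). Leaving out 1 library gave 1 to 3 higher (3 without KO replicate 2) and 2 to 4 lower (2 without KO replicate 1 or 2), and leaving out KO replicates 2 and 3 gave 1 higher and 2 lower.

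The list of neuropilin partners holds 13 genes: class 3 semaphorins, plexins and the adhesion molecule L1cam. Of these, 11 were tested, all of them semaphorins or plexins. In KO 6 were higher and 1 was lower, against 12.6% and 13.4% of all genes, and the median was 0.23. Sema3c, a semaphorin of cardiac outflow development, averaged 248 ± 14.4 CPM in KO and 181 ± 8.66 CPM in EV, and Sema3a averaged 80.0 ± 5.43 CPM in KO and 64.2 ± 7.64 CPM in EV. Plxna3 was higher as well (log2 fold change 0.47), and these 3 passed the test. The member that was lower was Plxna4, a signalling partner of neuropilins, at 396 ± 26.5 CPM in KO and 563 ± 36.9 CPM in EV. The number higher was 3 to 6 with 1 library left out (3 without EV replicate 3 or KO replicate 2), and 3 without KO replicates 2 and 3, with 1 lower in each of these fits.

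Downstream of the receptors, 36 of 39 adaptors and kinases were tested, with 7 higher, 5 lower and a median of 0.03; together they are near the 26.0% of all genes. Src (0.27) and Iqgap1 (0.23), which link VEGFR2 to the cytoskeleton and junctions, were higher in KO. Hspb1 (−0.50), the small heat shock protein that p38 signalling phosphorylates, was lower. With 1 library left out the counts were 5 to 8 higher and 4 to 7 lower, and without KO replicates 2 and 3 they were 4 higher and 2 lower.

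Of 34 coreceptors and regulators of VEGF receptors, 32 were tested, with 8 higher, 5 lower and a median of 0.06, against 12.6% higher and 13.4% lower of all genes. Cdh2, the N-cadherin of mesenchymal cells, averaged 269 ± 8.81 CPM in KO and 195 ± 15.9 CPM in EV. Socs3, a feedback inhibitor of cytokine signalling, averaged 61.6 ± 2.57 CPM in KO and 41.3 ± 4.18 CPM in EV, and Cd44, the hyaluronan receptor, averaged 85.1 ± 8.56 CPM in KO and 58.2 ± 3.35 CPM in EV. Spred1, an inhibitor of Ras signalling, was lower, at 145 ± 0.744 CPM in KO and 197 ± 9.30 CPM in EV. Leaving out 1 library gave 5 to 11 higher (5 without EV replicate 1, 2 or 3) and 5 to 6 lower, and the fit without KO replicates 2 and 3 gave 4 higher and 5 lower.

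Upstream of the ligands, 26 genes of oxygen sensing and ligand regulation were all tested, with 2 higher, 3 lower and a median of −0.003, a smaller share than the 26.0% of all genes. Egln3, a prolyl hydroxylase that is itself induced by hypoxia, averaged 21.1 ± 0.538 CPM in KO and 33.9 ± 1.26 CPM in EV. Epas1, which encodes HIF-2 alpha, averaged 34.99 ± 3.83 CPM in KO and 51.4 ± 5.45 CPM in EV. Both were lower while Vegfa was higher. Hif1a had a log2 fold change of −0.08 (edgeR adjusted p = 0.220). The number lower was 5 without KO replicate 1 and 3 to 4 without any other single library, and 2 to 3 were higher. Without KO replicates 2 and 3, 1 was higher and 3 were lower.

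Of 28 transcription factors known to act on VEGF receptor genes in endothelium, 20 were tested, with 3 higher, 4 lower and a median of 0.02, against 12.6% higher and 13.4% lower of all genes. Klf4 averaged 14.5 ± 1.68 CPM in KO and 6.37 ± 1.02 CPM in EV, Klf2 averaged 14.7 ± 1.59 CPM in KO and 8.72 ± 1.31 CPM in EV, and Ets2 averaged 114 ± 4.05 CPM in KO and 82.5 ± 3.97 CPM in EV. Mef2a was lower in KO (−0.27). These counts were the same in all 8 fits that left out 1 library, and 3 higher and 3 lower without KO replicates 2 and 3.

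Of 23 genes that VEGF induces in endothelium, 17 were tested, with 6 higher, 3 lower and a median of 0.23, against 12.6% higher and 13.4% lower of all genes. Mmp10, a stromelysin, averaged 31.9 ± 2.61 CPM in KO and 12.6 ± 1.22 CPM in EV, and Egr1, an immediate early factor, averaged 121 ± 10.3 CPM in KO and 71.3 ± 2.81 CPM in EV. F3, tissue factor, was higher as well (0.29). Icam1, an adhesion molecule, was lower, at 2.57 ± 0.331 CPM in KO and 5.70 ± 0.570 CPM in EV. Many stimuli other than VEGF induce these genes, and whether VEGF acted on the cells was not measured. Leaving out 1 library gave 4 to 6 higher and 1 to 4 lower. The number lower was 1 without EV replicate 3 or KO replicate 4 and 2 without EV replicate 1, EV replicate 2, KO replicate 1 or KO replicate 2. The fit without KO replicates 2 and 3 gave 4 higher and 3 lower of 18 tested.

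**Figure D5:**
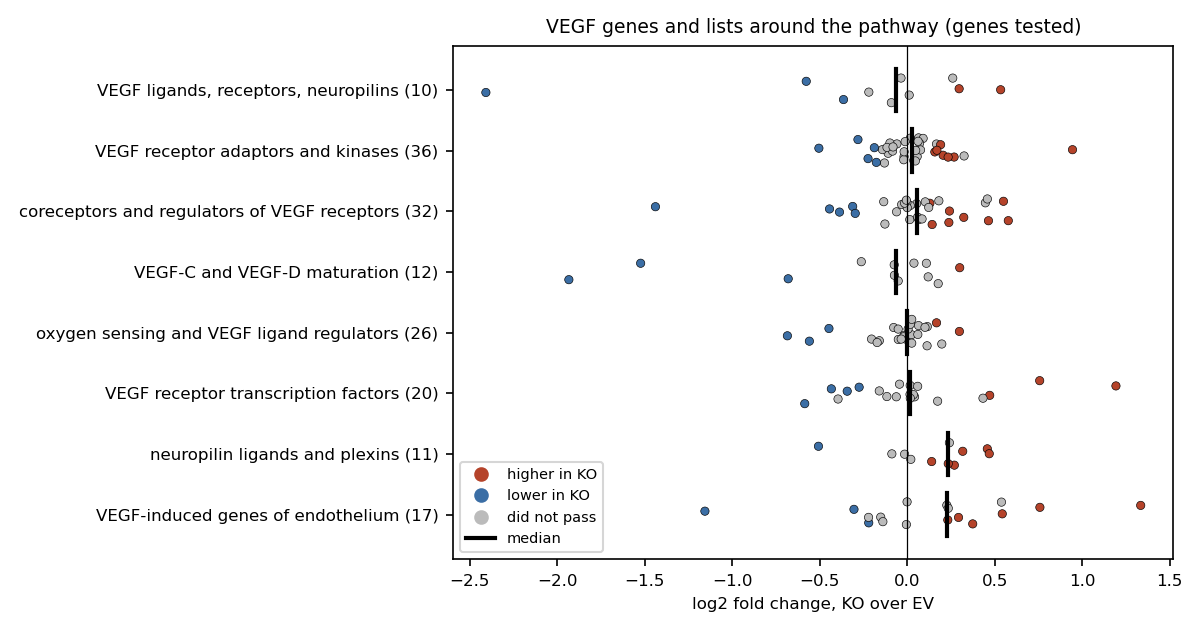
Log2 fold change, KO over EV, of each tested gene among the VEGF members and 7 lists around the pathway, with the number tested in brackets; points are genes coloured by edgeR's call at an adjusted p of 0.05, and the vertical bar is the list's median. Medians run from −0.06 for the members and the maturation list to 0.23 for the semaphorin and plexin list and the VEGF-induced genes.

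Sums of markers of other cell types that could carry VEGF genes differed between the groups. Mural cell markers (6 genes, 3 tested, 2 lower) summed to 57.0 to 60.5 CPM in KO and 69.6 to 79.2 CPM in EV, nearly all of it Pdgfrb and Notch3. The rest had few counts, with more in KO: Kcnj8 82 in KO and 56 in EV, Abcc9 23 and 5, Rgs5 22 and 13, and Cspg4 2 and 1. Pdgfrb was lower (−0.43), also in each fit that left out libraries, while Notch3 (−0.21) did not pass in 4 of the 8 fits that left out 1 library, nor without KO replicates 2 and 3. Leukocyte markers (7 of 8 in the table, 2 tested, Cd68 higher) summed to 10.4 to 11.4 CPM in KO and 6.19 to 7.50 CPM in EV, with Tyrobp and Laptm5 at 0 and Ptprc at 1 count in each group. Cardiomyocyte markers (7 genes, 3 tested, 1 lower) summed to 111 to 128 CPM in KO and 144 to 155 CPM in EV, nearly all of it Tnnt2. Myh6 had 194 counts in KO and 82 in EV, Actc1 52 and 22, Tnni3 34 and 27, and Ryr2 22 and 8. Myh7 had 10 in KO and 93 in EV, and Nppa had 0 in both. With 1 library left out, 0 to 2 of these markers were higher and 1 to 2 lower, and without KO replicates 2 and 3, 2 were lower. Of the endothelial markers that passed the filter, Tek was higher (0.42) and Robo4 lower (−1.44), but the call of Tek was lost in 4 of the 8 fits that left out 1 library. Of the lymphatic ones, Lyve1 was higher, at 0.917 ± 0.118 CPM in KO and 0.337 ± 0.147 CPM in EV, and Foxc2 was lower (−0.59). Without KO replicates 2 and 3, Tek, Lyve1 and Foxc2 did not pass (edgeR adjusted p = 0.135, 0.0723 and 0.0656). The part of these markers in the differences of the VEGF genes was not tested.

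Without KO replicate 1, whose labels conflict, 2 members were higher and 3 lower, the same numbers as with all libraries. Without KO replicates 2 and 3, 3 were higher and 2 lower, because Vegfd passed (0.42, edgeR adjusted p = 0.0108) and Vegfc did not.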

How the data were processed

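RNA of 8 libraries was extracted with Trizol, per the labels' protocols. The authors deposited raw counts per gene and FPKM, and these FPKM equal counts per gene length and column total for 100% of nonzero values within 1e-06. The submitters' processing notes name mm10 and DESeq 1.6.3; no source used here gives the aligner, counting tool, annotation or strand setting. Counts were tested with edgeR 4.0.16 (R 4.3.3): TMM scaling, the filterByExpr filter (minimum count of 10 and minimum total of 15, its defaults), the two-sided quasi-likelihood test of KO against EV, and Benjamini-Hochberg adjustment over 12801 genes, with a threshold of 0.05. SE is the size of the log2 fold change divided by the square root of F. The biological coefficient of variation was 6.41%. Single members had an exact permutation test over 70 arrangements. Depth was 18063745 to 24564892 counts, and 3 counts equal 0.122 to 0.166 CPM, a floor for counting error only. Within groups, counts of any 2 libraries differed beyond sampling noise (a chi-square of 4.01 to 13.2 per degree of freedom), so none was counted as a duplicate.

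The members and gene lists were chosen with earlier results of these data known. All members were named, and from each list up to 4 genes with the smallest adjusted p were named where at least 1 in 3 tested genes passed, otherwise 2; Adamts3, Hif1a, Wt1 and the single markers given by count were named beside this rule. A gene that the rule takes is not reported here. Alternatives were DESeq2 1.42.0, limma-voom (limma 3.58.1), RLE factors, library totals, 2 further filters, log2(FPKM + 1) or log2(FPKM + 0.1) in limma, the replicate number as a block and each library left out; the fit without KO replicates 2 and 3 was chosen after seeing the data. Replicate numbers were not used as pairs.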

Additional observations from a re-analysis of the deposited data

Results flagged for a closer look

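In 3 of the 20 sets of 4 libraries (10 genes in KO and in EV), 1 library stood apart from the other 3 by Dixon's criterion, which chance meets in about 1 of 20 such sets. Vegfc in KO replicate 2 was at 10.2 CPM, below the other KO libraries. Flt1 in EV replicate 3 was at 14.3 CPM, below the other EV libraries. Flt4 in EV replicate 2 was at 12.7 CPM, below the other EV libraries and still far above every KO library. Vegfc lost its call without KO replicate 2, while Flt4 kept a log2 fold change beyond −2 with any 1 library left out.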

How the results depend on the processing

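Vegfa, Kdr, Flt4 and Nrp1 kept direction and call under all 19 alternatives, with log2 fold changes of 0.46 to 0.55, −0.63 to −0.47, −2.52 to −1.23 and 0.23 to 0.31. Genes higher in KO numbered 1613, against 1039 with library totals, 896 with log2(FPKM + 1), 897 with log2(FPKM + 0.1), 766 with log2(FPKM + 1) unfiltered and 880 without KO replicates 2 and 3, where 1094 were lower. Leaving out 1 library gave 1239 to 1584 genes higher and 1382 to 1775 lower, with 2 to 3 VEGF genes in each direction. Vegfb turned to 0.00621 without KO replicate 2 and went down to −0.0692 without KO replicate 3. Pgf turned to −0.0405 with library totals, −0.0247 with log2(FPKM + 1), filtered or not, −0.0422 with log2(FPKM + 0.1), and to −0.0123 or −0.0361 without EV replicate 1 or 3 and −0.0455 or −0.0148 without KO replicate 3 or 4; leaving out 1 library gave at most 0.0902. The cause was not tested. Library totals moved the median of all genes to −0.05, against 0.01. At 34 to 52 counts, depth limits Pgf.

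Correlations of deviations between KO and EV libraries of the same replicate number were small (0.124, −0.0338, 0.0626 and 0.0907 for replicates 1 to 4). KO replicates 1, 3 and 4 correlated best with the EV replicate of their own number, and KO replicate 2 with EV replicate 4. Whether the numbers pair the libraries cannot be settled from these values. With the replicate block, 1879 genes were higher and 1858 lower, and 3 VEGF genes were higher, with Vegfd added (0.26, adjusted p 0.00954 by edgeR), and 3 lower.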

Other observations

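Genes whose log2 CPM (TMM-normalized, prior count of 3) ran closest to a member over the 8 libraries were looked up by Pearson's r among 9879 genes. This is a description: the values share libraries and depth, and where a gene differs between KO and EV, that difference sets much of r. Flt4 ran closest to Gpr56 (r = 0.996), an adhesion receptor at 8.59 CPM in KO and 20.1 CPM in EV, then Tmem8 and Ly9. Kdr ran closest to Fam171b (r = 0.997), then to Grb10, an imprinted adaptor of receptor tyrosine kinases at 595 CPM in KO and 920.3 CPM in EV, and to Ccnd2, a D cyclin at 397 CPM in KO and 607 CPM in EV. Vegfa ran closest to Bcl3 (r = 0.995), an NF-kappa B cofactor at 17.3 CPM in KO and 10.2 CPM in EV. Nrp1 ran closest to Usp46 (r = 0.991) and Vegfc to Cenpm (r = 0.969).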
